A study of Mus musculus with 7 samples.

Results

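The 10 genes described here encode 6 keratins (Krt5, Krt7, Krt8, Krt14, Krt18 and Krt19), the epithelial adhesion proteins EpCAM (Epcam) and E-cadherin (Cdh1), and the mesothelial genes Msln (mesothelin) and Upk3b (uroplakin 3b). They were taken by symbol from a deposited table of 24421 gene rows, where all 10 were found, and 8 of them had enough counts to be tested. The 3 pCAF libraries were made from PDPN+ cancer-associated fibroblasts of BALB/c breast tumors, which grew after orthotopic injection of 100000 4T1-luc cells, a line of mouse mammary carcinoma cells, into a mammary fat pad of females 8 weeks old. Each pCAF library is recorded with a tumor size of 1 cm. The 4 NMF libraries were made from stromal cells of the mammary fat pad of untreated BALB/c females labelled as 12 weeks old. The 8 weeks are given for the injected females, so the age labels may refer to different time points. Cells of both groups were sorted as negative for Ter119, CD45 and EpCAM, and only the pCAF sort also selected on podoplanin (PDPN); the selection field of pCAF replicate 3 reads PDPN-, while its title and source place it in pCAF. No engineered allele is given for either group, tumor and fat pad were digested with different collagenases, and the labels do not say which animals, or how many, gave each library. The tumor, the age label, the digestion and the podoplanin gate all differ between the groups and cannot be told apart, although the design text calls the mice age matched, and p-values measure only the spread between these libraries.

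Keratins are the intermediate filament proteins of epithelial cells and assemble as partners of a type I and a type II chain. Krt8 with Krt18 is the usual partnership of simple epithelia, to which Krt7 and Krt19 also belong, while Krt5 with Krt14 marks basal and myoepithelial cells of the mammary duct. EpCAM and E-cadherin hold epithelial cells together, and mesothelin and uroplakin 3b are surface proteins of mesothelium, the sheet that lines the body cavities. Because both sorts removed cells with EpCAM on the surface, counts of these genes were read in cells selected against epithelium.

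Total counts were 1885039 to 2184389 in the pCAF libraries and 2223198 to 4990070 in the NMF libraries, so that 1 count was worth 0.554 to 0.563 CPM (counts per 1000000 counts of the library) in pCAF and 0.187 to 0.422 CPM in NMF. CPM were computed from the counts with library sizes scaled by the TMM method. Genes were compared with edgeR's quasi-likelihood F test, two-sided, and called changed at a Benjamini-Hochberg adjusted p under 0.05 over 10535 tested genes. A log2 fold change is that of pCAF over NMF, with its standard error (SE). Pdpn, the gene of the sorted marker, had 987, 281 and 384 CPM in pCAF 1 to 3 and 44.1 to 58.4 CPM in NMF, so that pCAF 3 lay with its group. Without pCAF 3, whose selection field differs, Epcam, Cdh1, Krt19 and Msln kept their calls (edgeR adjusted p = 0.0457, 0.0436, 0.00278 and 5.52e-04). Replicate pCAF 1 had counts in 11090 genes, against 13222 to 14353 genes in the other libraries. Correlations of log2 CPM ran from 0.83 to 0.974 among the pCAF libraries, from 0.892 to 0.965 among the NMF libraries and from 0.621 to 0.735 between the groups.

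Of the 8 tested members, Msln was higher in pCAF, and Epcam, Cdh1 and Krt19 were lower. Krt7, Krt8, Krt14 and Krt18 did not pass the test, and Krt5 and Upk3b held too few counts to be tested. Over all tested genes 14.3% were called higher, 14.2% lower and 28.4% in either direction. The 1 of 8 higher lies near that background and the 3 of 8 lower lies above it, with no test of the list. The members and the lists below were chosen with earlier results of these data known, so such shares are a description only. The count of lower members was 2 with limma-voom, without pCAF 2 or without NMF 2, and 1 without NMF 1. The median log2 fold change of the 8 was -0.14, against -0.02 over all tested genes. In CPM, Msln and Upk3b were higher in every pCAF library than in every NMF library. Epcam, Cdh1 and Krt19 were lower in every pCAF library than in every NMF library. Over all tested genes the groups did not overlap in 19.0% with pCAF above, in 21.4% with pCAF below and in 40.4% in all. Upk3b was not tested, so the matching counts are 1 of 8 tested members above and 3 of 8 below. The 1 of 8 does not exceed its background and the 3 of 8 does, again as a description with no test of the list.

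**Figure D1:**
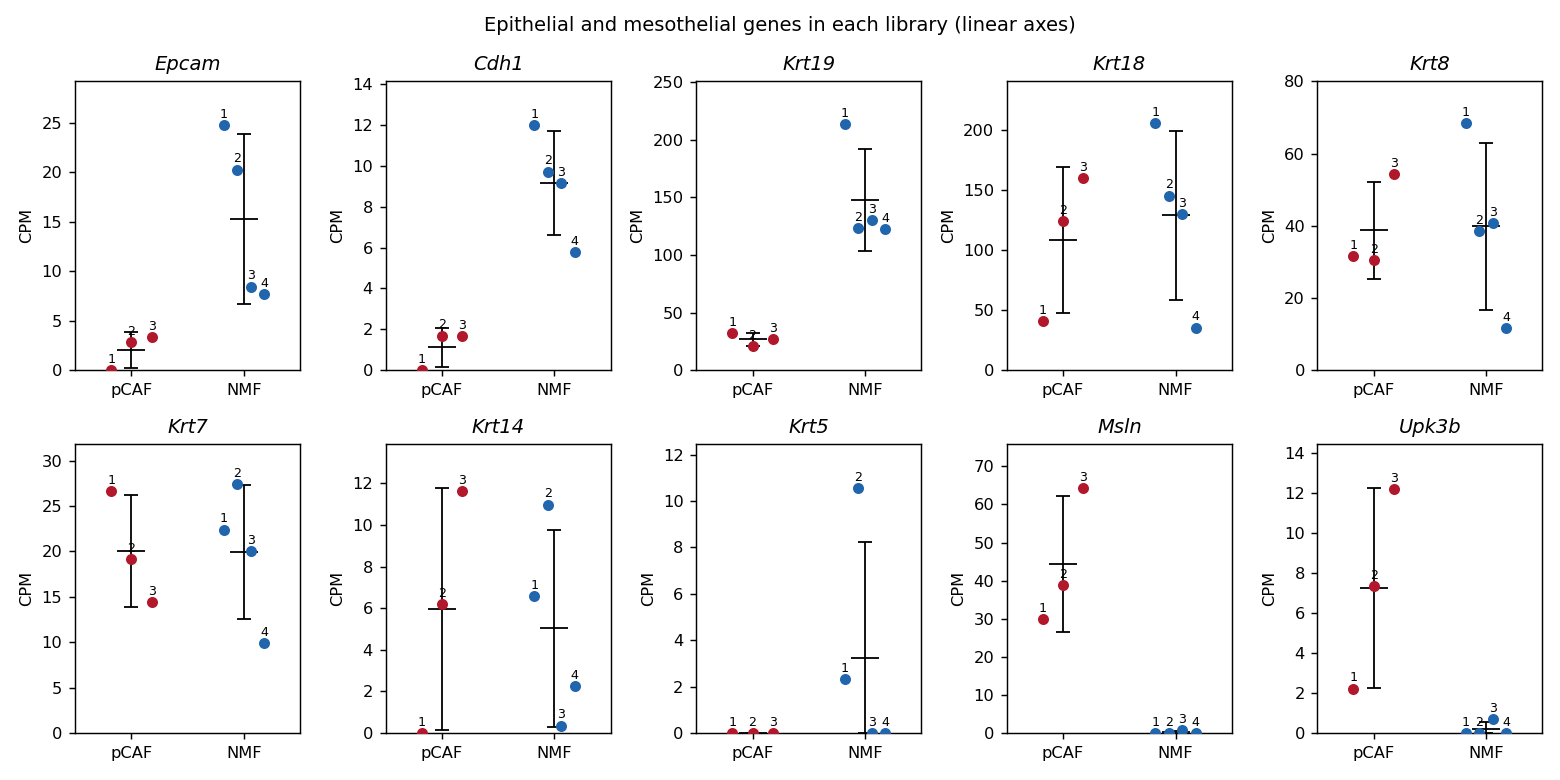
CPM on linear axes, 1 panel a gene, of the 10 genes in each library, pCAF on the left and NMF on the right, with points numbered by replicate and bars for the mean ± SD, cut at 0 (n = 3 pCAF, n = 4 NMF). Epcam, Cdh1 and Krt19 lie lower in all 3 pCAF libraries than in the 4 NMF libraries, Msln and Upk3b lie higher, and the groups overlap for the other keratins.

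Epcam encodes the adhesion molecule against which both groups had been sorted, and lies on chromosome 17 (mm10, 87635979 to 87651129, plus strand). It had 0, 2.82 and 3.33 CPM in pCAF 1 to 3, against 24.7, 20.3, 8.45 and 7.66 CPM in NMF 1 to 4. Every NMF library lay above every pCAF library, and pCAF 1 held no Epcam count at all, while pCAF 2 and 3 held 5 and 6 counts. The group means were 2.05 ± 1.79 CPM in pCAF and 15.3 ± 8.54 CPM in NMF (SD, n = 3 and n = 4), a 7.26-fold lower level in pCAF with a log2 fold change of -2.86 (SE 0.83, edgeR adjusted p = 0.0275). This call was lost with limma-voom (adjusted p = 0.0694), without pCAF 2 (0.0584), without NMF 1 (0.0839) and without NMF 2 (0.0758), at log2 fold changes between -3.38 and -2.28 over the libraries left out. In these sorted bulk libraries, fewer cells of a type and less RNA per cell cannot be told apart.

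Cdh1 encodes E-cadherin, the calcium-dependent cadherin of adherens junctions, on chromosome 8 (106603351 to 106670246, plus strand). Its counts were 0, 3 and 3 in pCAF 1 to 3, against 31, 23, 26 and 31 in NMF 1 to 4, or 0, 1.69 and 1.66 CPM in pCAF against 12.0, 9.71, 9.15 and 5.79 CPM in NMF. As with Epcam, pCAF 1 held none and the groups did not overlap. The mean was 1.12 ± 0.968 CPM in pCAF and 9.16 ± 2.55 CPM in NMF, 7.86-fold lower in pCAF (log2 fold change -2.97, SE 0.78, edgeR adjusted p = 0.0176). Without NMF 1 the adjusted p was 0.0508. Epcam and Cdh1 varied together over the 7 libraries (Pearson r = 0.971 of log2 CPM), a description over points that share the group difference and their library.

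Some promoter sequences are shown because the transcription factors of the SNAI and ZEB families, known repressors of Cdh1, bind the E-box letters CAGGTG, and because RUNX factors bind TGTGGT. The 250 bases before the start of Epcam, of the keratin partners Krt8 and Krt18, and of Upk3b follow 5′ to 3′ on the strand of the gene (RefSeq, GRCm38.p6), with matches to either motif on either strand in capitals (CACCTG and ACCACA are the opposite strands). The Epcam window is chr17:87635729-87635978, plus strand. The Krt8 window is chr15:102004343-102004592, minus strand. The Krt18 window is chr15:102027966-102028215, plus strand. The Upk3b window is chr5:136038246-136038495, plus strand. These starts are those of RefSeq, whereas the gene positions printed in the text are those of GENCODE M21. By the GENCODE positions, part of the Krt8 window and part of the Krt18 window lie inside the gene.
Epcam: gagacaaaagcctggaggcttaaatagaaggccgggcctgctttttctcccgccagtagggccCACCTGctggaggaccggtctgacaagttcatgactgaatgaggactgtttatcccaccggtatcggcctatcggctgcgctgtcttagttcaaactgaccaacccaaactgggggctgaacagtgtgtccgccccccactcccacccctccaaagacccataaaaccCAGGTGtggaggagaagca
Krt8: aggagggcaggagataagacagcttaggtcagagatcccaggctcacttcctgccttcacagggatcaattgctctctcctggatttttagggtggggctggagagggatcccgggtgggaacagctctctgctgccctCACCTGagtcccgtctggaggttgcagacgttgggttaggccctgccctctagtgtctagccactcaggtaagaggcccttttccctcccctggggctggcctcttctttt
Krt18: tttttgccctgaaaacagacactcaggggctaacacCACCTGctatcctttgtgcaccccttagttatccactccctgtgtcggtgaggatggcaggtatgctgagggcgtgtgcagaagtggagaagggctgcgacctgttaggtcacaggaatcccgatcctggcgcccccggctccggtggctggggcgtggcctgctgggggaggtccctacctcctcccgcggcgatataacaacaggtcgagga
Upk3b: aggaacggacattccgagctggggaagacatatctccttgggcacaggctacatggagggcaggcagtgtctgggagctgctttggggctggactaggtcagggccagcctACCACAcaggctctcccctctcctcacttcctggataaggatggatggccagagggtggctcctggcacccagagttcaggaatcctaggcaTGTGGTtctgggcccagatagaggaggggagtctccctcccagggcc

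CAGGTG was found in 5 of the 7 members whose start is in the RefSeq table used here, 2 times in Epcam and 1 time each in Krt5, Krt7, Krt8 and Krt18, against 17.2% of 32851 promoter windows of the same length. Cdh1, Krt19 and Msln are not among the 7. By the GENCODE positions the Krt7 and Krt14 windows lie inside the gene, and those of Krt8 and Krt18 partly so. The member counts thus mix bases upstream of genes with bases inside them. TGTGGT was found in 1 of the 7, Upk3b, where it occurs 2 times, against 14.0% of windows. The letters are present both in Epcam, which was lower in pCAF, and in Krt8 and Krt18, which did not pass the test. No window held both motifs, and a match is a description of the sequence only.

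Krt19 encodes the smallest type I keratin, which has almost no tail domain, and lies on chromosome 11 (100140810 to 100148665, minus strand). It was the best measured of the members that were lower, with 32.2, 20.8 and 27.2 CPM in pCAF 1 to 3 against 214, 124, 131 and 123 CPM in NMF 1 to 4. The 3 pCAF libraries were close to each other and the groups were separated by a wide gap, with NMF 1 highest. The mean was 26.7 ± 5.67 CPM in pCAF and 148 ± 44.1 CPM in NMF, 5.51-fold lower in pCAF (log2 fold change -2.46, SE 0.32, edgeR adjusted p = 4.53e-04). Each alternative fit and each omission of a library kept this call, with adjusted p between 3.00e-04 and 0.00304 over the omissions.

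Krt18 encodes the type I partner of Krt8 and lies on chromosome 15 (102028180 to 102032027, plus strand), with the start of Krt8 23.7 kb away (101996698 to 102004482, minus strand). Krt18 had 41.0, 124 and 160.2 CPM in pCAF 1 to 3, against 206, 146, 129.9 and 35.5 CPM in NMF 1 to 4. The groups overlapped widely, with pCAF 1 and NMF 4 low within their own group. The mean was 109 ± 61.1 CPM in pCAF and 129 ± 70.6 CPM in NMF (log2 fold change -0.25, SE 0.57, edgeR adjusted p = 0.785). Krt8, the type II partner, had 31.6, 30.4 and 54.3 CPM in pCAF and 68.4, 38.4, 40.8 and 11.8 CPM in NMF, again with NMF 4 the lowest library. Its means were 38.8 ± 13.5 CPM in pCAF and 39.8 ± 23.1 CPM in NMF, with a log2 fold change of -0.03 (SE 0.51, edgeR adjusted p = 0.974). Over the 7 libraries the log2 CPM of Krt8 and Krt18 had a Pearson r of 0.840.

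Krt7, a type II keratin of ducts and other simple epithelia, also lies on chromosome 15 (101411043 to 101430313, plus strand). It had 26.6, 19.2 and 14.4 CPM in pCAF 1 to 3 and 22.4, 27.4, 20.1 and 9.90 CPM in NMF 1 to 4, so that the groups overlapped. The means were 20.1 ± 6.15 CPM in pCAF and 20.0 ± 7.38 CPM in NMF (log2 fold change 0.02, SE 0.42, edgeR adjusted p = 0.978). A p that misses the threshold does not show that Krt7, Krt8 and Krt18 are equal in the groups, given the SEs of 0.42 to 0.57 on the log2 scale.

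Of the 4 simple keratins together, Krt19 took 24.5%, 10.7% and 10.6% of counts in pCAF 1 to 3, against 41.9%, 36.9%, 40.6% and 68.2% in NMF 1 to 4. The exact 95% intervals, which cover counting error only, were 19.1 to 30.5%, 7.64 to 14.4% and 7.95 to 13.8% in pCAF, against 39.2 to 44.6%, 33.5 to 40.4%, 37.4 to 43.9% and 65.2 to 71.2% in NMF. Every NMF library thus exceeded every pCAF library beyond counting error. The mean share was 15.3 ± 7.98% in pCAF and 46.9 ± 14.4% in NMF, with a two-sided exact permutation p of 0.0286, the smallest that 3 against 4 libraries allow, and 0.0857 after adjustment over 6 keratin measures. The share of Krt8 went the other way, with a mean of 20.3 ± 4.30% in pCAF and 11.03 ± 3.10% in NMF, at the same permutation p and adjusted p. The 4 shares of a library are parts of 1 total, so that a lower share of Krt19 raises the others. The Krt8 share is therefore not a separate result, and the log2 fold change of Krt8 itself was -0.03. Krt18 took 31.2%, 63.9% and 62.6% in pCAF and 40.3%, 43.5%, 40.4% and 19.7% in NMF, which overlap (permutation p = 0.229, adjusted 0.274). Krt7 took 20.3%, 9.83% and 5.63% in pCAF and 4.39%, 8.19%, 6.24% and 5.50% in NMF (permutation p = 0.114, adjusted 0.229). The counts come from 3′ ends and were not scaled by transcript length, so shares are compared between groups and not between genes. Krt18 counts per Krt8 count were 1.30, 4.09 and 2.95 in pCAF, against 3.01, 3.79, 3.18 and 3.02 in NMF, with pCAF 1 apart (permutation p = 0.657). Summed over the 4 genes the level was 131, 195 and 256 CPM in pCAF and 510.2, 335, 321 and 179.8 CPM in NMF (permutation p = 0.171, adjusted 0.257).

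**Figure D2:**
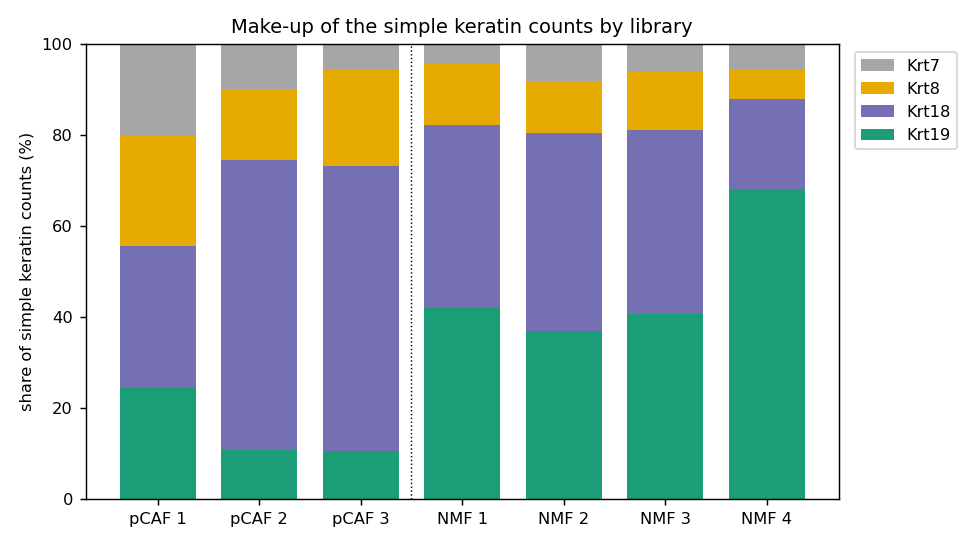
Share (%) of the summed Krt7, Krt8, Krt18 and Krt19 counts taken by each gene in each library, pCAF 1 to 3 left of NMF 1 to 4. Krt19 takes 10.6 to 24.5% in pCAF and 36.9 to 68.2% in NMF, with NMF 4 highest.

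Krt14, the type I keratin of basal and myoepithelial cells (chromosome 11, 100203162 to 100207548, minus strand), had 0, 6.20 and 11.6 CPM in pCAF 1 to 3, against 6.57, 10.98, 0.352 and 2.24 CPM in NMF 1 to 4. Both groups ran from nearly none to about 11 CPM, and pCAF 1 held no count. The means were 5.95 ± 5.82 CPM in pCAF and 5.03 ± 4.74 CPM in NMF (log2 fold change 0.28, SE 1.10, edgeR adjusted p = 0.880). Its partner Krt5 (chromosome 15, 101707070 to 101712898, minus strand) was at 0 in all 3 pCAF libraries, against 6, 25, 0 and 0 counts in NMF 1 to 4. Most Krt5 counts of NMF thus came from NMF 2, at 10.6 CPM. Taking 3 counts in the pooled pCAF libraries (0.557 CPM) as the limit that 0 counts allow, Krt5 was at least 4.23-fold lower in pCAF, and this bound was 0.998-fold without NMF 2, which no longer marks a difference, 7.13-fold without NMF 4, and 2.81- to 2.83-fold without 1 pCAF library.

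Msln, the gene for mesothelin (chromosome 17, 25748613 to 25754378, minus strand), had 29.9, 38.9 and 64.3 CPM in pCAF 1 to 3. In NMF it was at 0 in replicates 1, 2 and 4, and at 0.704 CPM, or 2 counts, in replicate 3. The groups were separated in every library, with mean levels of 44.4 ± 17.8 CPM in pCAF and 0.176 ± 0.352 CPM in NMF. The fitted log2 fold change was 7.77 (SE 0.77, edgeR adjusted p = 1.02e-04), and since NMF held 2 counts in all, the ratio of the pooled rates was 292 with an exact 95% counting interval of 79.96 to 2425. Without NMF 3 the level was at least 152.6-fold higher in pCAF, and without NMF 4, the deepest library, the ratio was 173 (47.4 to 1438).

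Upk3b, a uroplakin also found on mesothelium (chromosome 5, 136038496 to 136046487, plus strand), had 4, 13 and 22 counts in pCAF 1 to 3, against 0, 0, 2 and 0 counts in NMF 1 to 4. In CPM these are 2.22, 7.32 and 12.2 in pCAF, against 0.704 in NMF 3 and 0 in the other NMF libraries. As with Msln, NMF 3 was the 1 NMF library with counts, and pCAF 3 was the highest library. The mean was 7.25 ± 4.99 CPM in pCAF and 0.176 ± 0.352 CPM in NMF, a ratio of pooled rates of 47.6 (exact 95% counting interval 12.3 to 407). With no filter on low counts the gene was tested, with a log2 fold change of 5.09 (edgeR adjusted p = 0.00529). Without pCAF 3 the ratio was 31.2 (7.42 to 279), without NMF 4 it was 28.3 (7.31 to 242), and without NMF 3 the level was at least 24.9-fold higher.

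**Figure D3:**
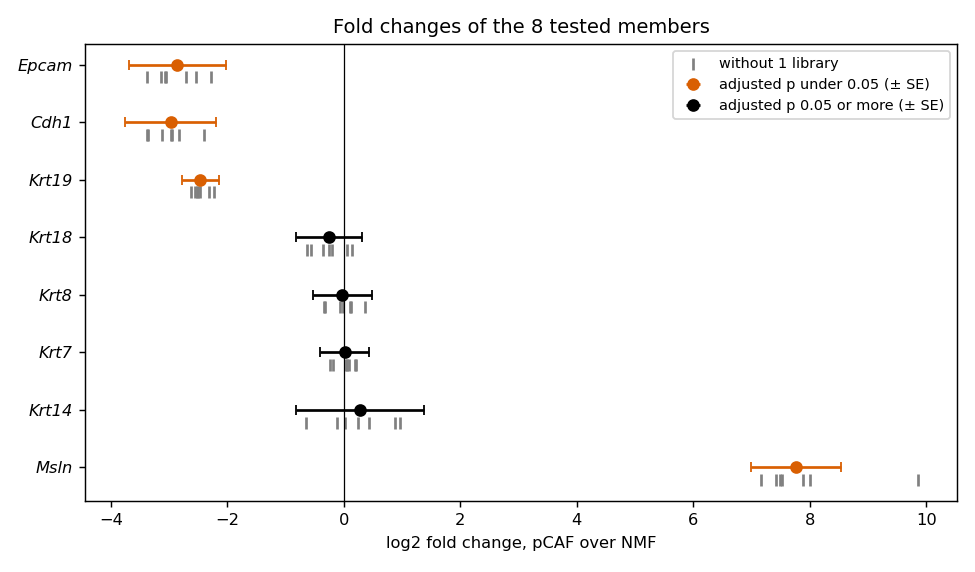
Log2 fold change, pCAF over NMF, of the 8 tested members with bars of 1 SE and grey ticks for the fit without each library in turn; orange marks an adjusted p under 0.05. Msln lies at 7.77, Epcam, Cdh1 and Krt19 between -2.97 and -2.46, and Krt7, Krt8, Krt14 and Krt18 near 0.

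A list of 22 further mesothelial genes in the table was read beside Msln and Upk3b. Of 16 tested, 7 were higher in pCAF and 4 lower, against 14.3% and 14.2% of all genes, with a median log2 fold change of 0.78. Upk1b, a uroplakin, had 61.0 ± 22.8 CPM in pCAF and 0 in the 4 NMF libraries (at least 268-fold higher, and 159-fold without NMF 4, edgeR adjusted p = 1.13e-04), and Lrrn4, a transmembrane protein gene, had 24.7 ± 2.42 CPM in pCAF and 0 in NMF (at least 108-fold higher, and 64.2-fold without NMF 4, adjusted p = 2.50e-04). Wt1, a transcription factor of mesothelium, had 101 ± 28.6 CPM in pCAF and 2.43 ± 2.04 CPM in NMF (37.9-fold higher, and 62.8-fold without NMF 4; log2 fold change 5.24, edgeR adjusted p = 1.53e-04). Aldh1a2, which makes retinoic acid, had 210.3 ± 53.3 CPM in pCAF and 1.81 ± 1.34 CPM in NMF (102-fold higher, and 176-fold without NMF 4; log2 fold change 6.68, edgeR adjusted p = 2.84e-05). Slpi, a secreted protease inhibitor, had 284 ± 46.9 CPM in pCAF and 3.51 ± 1.45 CPM in NMF (6.26, 2.11e-05), although a microRNA gene overlaps its 3′ end. Calb2, the calretinin gene, had 0, 7 and 15 counts in pCAF 1 to 3 and 0 in every NMF library. Igfbp5, Podxl, Cldn15 and Gpc3 of the same list were lower in pCAF, at log2 fold changes of -3.50, -4.35, -2.57 and -1.41, while Efemp1 (adjusted p = 0.169) and C3 (0.369) did not pass. Without pCAF 1, 11 genes were higher and 5 lower, and Efemp1 was among the lower ones (log2 fold change -2.05, edgeR adjusted p = 0.00142).

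**Figure D4:**
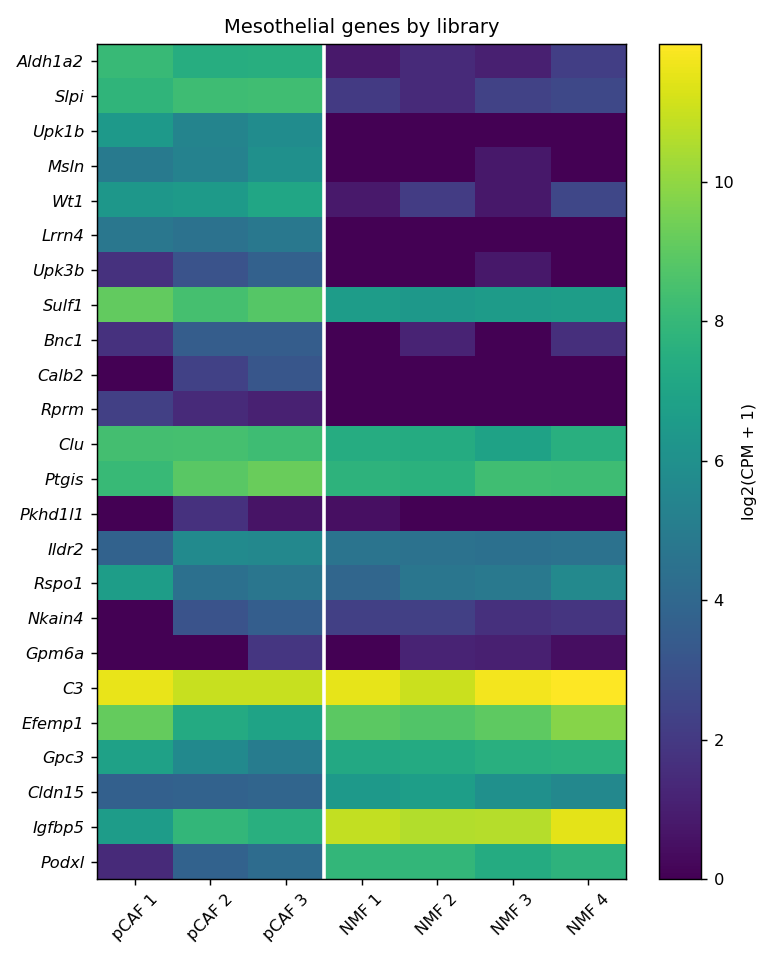
Log2(CPM + 1), as colour, of Msln, Upk3b and the 22 listed mesothelial genes (down the page) in each library, with pCAF left of NMF. Msln, Upk3b, Upk1b and Lrrn4 are at or near 0 in the NMF libraries, and Wt1, Aldh1a2 and Slpi are higher in the 3 pCAF libraries.

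Of 11 tested epithelial junction and polarity genes, 4 were lower in pCAF and 0 higher by edgeR's test, against 14.2% lower and 14.3% higher over all tested genes, with a median log2 fold change of -1.37. None was higher at an unadjusted p under 0.05 or with DESeq2's test either. Cldn7, a tight junction claudin, had 3 counts over pCAF and 140 over NMF, so that the NMF rate was 19.1 times that of pCAF (6.40 to 93.7, edgeR adjusted p = 0.0191). As pCAF over NMF this ratio was 0.0524, against 0.0260 without pCAF 2, 0.0787 without pCAF 1 and 0.0322 without NMF 4. Spint2, a membrane protease inhibitor, had 5.56 ± 1.97 CPM in pCAF and 29.1 ± 15.0 CPM in NMF (log2 fold change -2.37, edgeR adjusted p = 0.0141). F11r, the junctional adhesion molecule A gene, had 33.6 ± 15.7 CPM in pCAF and 87.0 ± 36.1 CPM in NMF (-1.37, 0.0383). Lsr did not pass, at an adjusted p of 0.236. The count of lower genes was 2 without pCAF 2, 1 without NMF 1, NMF 2 or NMF 3, 6 without NMF 4, and 0 with limma-voom (2 at an unadjusted p under 0.05); 1 gene was higher without pCAF 1. Spint2 did not pass without pCAF 2 (adjusted p = 0.0524), Cldn7 without pCAF 3 (0.0573), and F11r without pCAF 1 or 2 or NMF 1, 2 or 3 (0.0608 to 0.112). The summed level of the list was 119 to 160.2 CPM in pCAF and 105 to 355 CPM in NMF, with NMF 4 the lowest.

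Most other keratins and epithelial regulators were too low to test. Of 25 further keratin genes, 9 were at 0 in every library and 2 were tested, Krt10 (adjusted p = 0.931) and Krt23 (0.162), neither past the threshold nor at an unadjusted p under 0.05 with edgeR, DESeq2 or limma-voom. Krt23 had 1.66, 19.7 and 22.2 CPM in pCAF 1 to 3 and 3.86, 4.64, 2.11 and 8.96 CPM in NMF 1 to 4, and passed without pCAF 1 (adjusted p = 0.0106), where 1 further keratin was lower. Of 18 epithelial transcription and splicing factors, 1 was tested, Klf5, a zinc finger factor, with 11.9 ± 2.78 CPM in pCAF and 30.5 ± 6.67 CPM in NMF (log2 fold change -1.36, edgeR adjusted p = 0.0154; 0.0658 without pCAF 2). Ovol2, a factor that keeps cells epithelial, had 41, 0 and 0 counts in pCAF 1 to 3 and 1, 1, 0 and 4 counts in NMF 1 to 4, so that nearly all counts came from pCAF 1. Foxa1, a factor of luminal cells, had 0, 1 and 0 counts in pCAF and 22, 7, 9 and 8 counts in NMF.

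Of 10 tested desmosome plaque and hemidesmosome genes, 1 was higher in pCAF and 4 were lower (median log2 fold change -1.47); over all tested genes 14.3% were higher, near the 1 of 10, and 14.2% lower. Pkp2, a plakophilin of desmosomes, was the higher one, at 13.5 ± 5.61 CPM in pCAF and 2.18 ± 0.681 CPM in NMF (2.63, edgeR adjusted p = 0.00481). Ppl, periplakin, had 3.72 ± 1.40 CPM in pCAF and 41.2 ± 37.0 CPM in NMF (11.1-fold lower in pCAF, edgeR adjusted p = 0.00509; 5.96-fold without NMF 4, and adjusted p = 0.0506 with limma-voom). Dst, dystonin, and Itga6, an integrin of hemidesmosomes, had log2 fold changes of -1.66 and -1.74 (edgeR adjusted p = 0.00180 and 0.0111). Of 14 tested luminal mammary genes, 3 were higher (21.4%, against 14.3% of all tested genes) and 5 lower (35.7%, against 14.2%). Kit, a receptor tyrosine kinase, and Wfdc18, a milk protein gene, were at 0 in the 3 pCAF libraries (at least 14.9-fold and 12.7-fold lower, edgeR adjusted p = 0.00262 and 0.00788), with bounds down to 9.89-fold and 8.43-fold without 1 pCAF library. Areg, amphiregulin, was lower at a log2 fold change of -3.83 (edgeR adjusted p = 0.00945; 14.2-fold, 31.9-fold without pCAF 2, and adjusted p = 0.0724 with limma-voom). Wnt4, whose 3′ end has near copies in the reference, was higher in pCAF (log2 fold change 3.71, edgeR adjusted p = 3.40e-04), and Mfge8 did not pass (0.905). The luminal count of lower genes was 3 without pCAF 3 and 2 without NMF 1, NMF 2 or NMF 3, and the count of higher genes was 5 without pCAF 1.

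Of 13 tested myoepithelial and basal mammary genes, 7 were higher in pCAF and 3 lower, against 14.3% higher and 14.2% lower over all tested genes, with a median log2 fold change of 0.89. The 7 include Pdpn, on which the pCAF cells were sorted, and Vim, which is also in the list of other intermediate filament genes and whose fold change is the median. The higher ones include Tagln, Acta2 and Cnn1, which encode contractile proteins that myofibroblasts also make, and the epidermal growth factor family ligand Nrg1. Acta2 had 72.1 ± 29.0 CPM in pCAF and 1.69 ± 0.786 CPM in NMF (log2 fold change 5.49), and Cnn1 had 102 ± 47.7 CPM in pCAF and 2.95 ± 1.56 CPM in NMF (5.18, edgeR adjusted p = 1.13e-04). Nrg1 had 27.1 ± 1.87 CPM in pCAF and 1 count in NMF, a ratio of pooled rates of 357 (63.0 to 14187), 212 without NMF 4 (37.4 to 8411), and at least 95.5-fold higher without NMF 1. Another gene overlaps the 3′ end of Tagln. Basal keratins of this list were low, with Krt15 at 0, 1 and 0 counts in pCAF and 10, 10, 9 and 6 counts in NMF, and Krt17 at 0, 1 and 2 counts in pCAF and 10, 14, 13 and 17 counts in NMF. Myh11, the smooth muscle myosin heavy chain, and Mylk, a myosin light chain kinase, did not pass (adjusted p = 0.130 and 0.648). The count of lower genes in this list was 5 without pCAF 1 and 1 without NMF 1.

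Of 8 tested cadherin and catenin genes other than Cdh1, 2 were higher in pCAF and 3 lower, against 14.3% higher and 14.2% lower over all tested genes. Cdh11, the osteoblast cadherin, had 299.8 ± 160.2 CPM in pCAF and 38.0 ± 8.93 CPM in NMF (log2 fold change 2.98, edgeR adjusted p = 6.69e-04), and Cdh2, N-cadherin, had 13.5 ± 6.14 CPM in pCAF and 2.70 ± 1.39 CPM in NMF (2.27, 0.0146; 0.0924 without pCAF 3). Cdh5, the endothelial cadherin, was lower, at 1.49 ± 1.29 CPM in pCAF and 202 ± 76.7 CPM in NMF (-7.04, 7.26e-05), as was Cdh13 (-3.83, 0.00356). Of 8 tested other intermediate filament genes, 3 were higher and 1 lower in pCAF, with the 1 of 8 lower near the 14.2% of all tested genes and 14.3% of them higher. Vim, vimentin, the filament of mesenchymal cells, had 7708 ± 2462 CPM in pCAF and 4156 ± 525 CPM in NMF (log2 fold change 0.89, edgeR adjusted p = 0.0393), and Des, desmin, had 166 ± 62.4 CPM in pCAF and 50.1 ± 21.4 CPM in NMF (1.72, 0.00933), although another gene overlaps the 3′ end of Des. Synm, synemin, was lower, with 0.930 ± 0.849 CPM in pCAF and 19.1 ± 6.76 CPM in NMF (-4.29, 0.00177). Without 1 library other than pCAF 3 or NMF 4 the adjusted p of Vim was 0.0551 to 0.116. The count of higher filament genes was 1 without pCAF 2, NMF 1 or NMF 2, the count of lower ones was 2 without any 1 pCAF library, and 1 cadherin was higher without pCAF 3. Synm was 19.5-fold lower in pCAF, and 31.4-fold without pCAF 3.

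**Figure D5:**
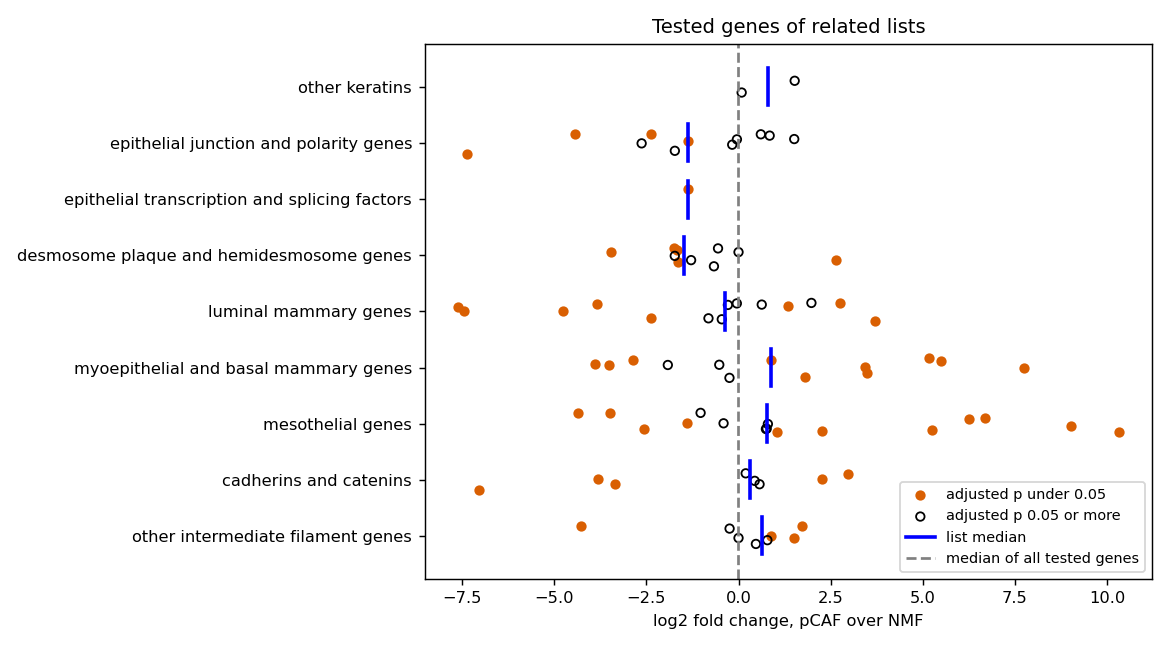
Log2 fold changes, pCAF over NMF, of the tested genes of each related list, with a blue line at the median of each list, a dashed line at the median of all tested genes, and filled orange points for an adjusted p under 0.05. The junction and desmosome lists have medians of -1.37 and -1.47, and the mesothelial list has a median of 0.78 with genes on either side of 0.

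Markers of other cell types differed between the groups beside these genes. Over all tested genes 14.3% were called higher and 14.2% lower, and shares of such small marker sets are coarse. Summed blood endothelial markers were 40.5 to 59.9 CPM in pCAF and 1461 to 2239 CPM in NMF, with 9 of 9 lower, and adipocyte markers were 1.11 to 57.1 CPM in pCAF and 1639 to 15286 CPM in NMF, with 4 of 4 tested lower. Schwann cell markers were 0 to 3.38 CPM in pCAF and 140.1 to 671 CPM in NMF, with 5 of 5 tested lower, pericyte markers were 154 to 253 CPM in pCAF and 306 to 498 CPM in NMF, with 3 of 6 lower, and lymphatic markers were 23.3 to 46.2 CPM in pCAF and 30.6 to 62.1 CPM in NMF, with 1 of 3 tested lower and 1 higher. Immune markers were 15.0 to 45.6 CPM in pCAF and 14.9 to 152 CPM in NMF, with 2 of 4 tested lower, and all 5 erythroid markers were at 0 in every library. Summed fibroblast markers were 70041 to 81572 CPM in pCAF and 22788 to 42398 CPM in NMF, with 4 of 8 higher. The part of these cells in the lower Epcam, Cdh1 and Krt19 and in the higher Msln and Upk3b was not tested.

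By the Pearson correlation of log2 CPM over the 7 libraries, the tested genes most like Msln were Cyp26a1 (r = 0.998), Ereg (0.998) and St7 (0.997), and those most like Krt19 were Gga1 (0.994), Dedd2 (0.994) and Grina (0.992). Krt18 was most like Srfbp1 (0.986), Slc25a22 (0.983) and Sox9 (0.978), Krt8 most like Ptcd3 (0.966), and Krt7 most like Kti12 (0.976). Cdh1 was most like Limch1 (0.998), Arid3b (0.997) and Hid1 (0.996). The points of these correlations share the group difference and the library. For Epcam and Krt14 the nearest genes changed with the prior count added before the logarithm. At a prior count of 0.5, 0 of 3 and 1 of 3 were shared. For Msln and Cdh1 2 of 3 were shared, with Lap3 in place of St7 and Lmo1 in place of Hid1. None of the 10 genes has a near copy of its last 300 bases elsewhere in the reference annotation or a gene overlapping its 3′ end.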

How the data were processed

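Messenger RNA was measured by sequencing 3′ ends of polyadenylated RNA, per the labels' protocols, in 3 pCAF and 4 NMF libraries grouped by title and source name. The authors deposited raw counts per gene symbol. STAR 2.4.2a, HTSeq, bcl2fastq and the mm10 build are listed in the submitters' processing notes; annotation, strandedness and molecular identifiers are not given in the sources used here. The members and lists were chosen with earlier results of these data known.

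Counts were fitted in R 4.3.3 with edgeR 4.0.16: filterByExpr by group (minimum count 10), TMM factors, a robust quasi-likelihood F test, and Benjamini-Hochberg adjustment over 10535 genes. Where a group had no count, folds are bounds against 3 counts in its pooled libraries, which is 0.557 CPM for pCAF and 0.228 CPM for NMF; with 1 to 3 counts, the pooled ratio has an exact 95% interval. Both bounds and intervals reflect counting error alone. Log2 CPM for correlations had a prior count of 2. Total counts per library were 1885039 to 4990070, so that low genes rest on few counts.

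From each list the text names up to 4 genes with the smallest adjusted p past 0.05 and up to 2 with the largest total count among the rest; for members with at least 50 counts, the genes with the highest correlation. Igfbp5, Podxl, Cldn15, Gpc3, Calb2, Lrrn4, Krt15, Krt17, Pdpn and the genes of the closing observations were named after their values were seen. A few genes picked by this rule enter the list counts but are not reported here. Positions are from GENCODE M21 and promoters from RefSeq, and the starts of the 2 sources differ for some members. Replicate numbers are not stated to pair the groups. Deviations of same-numbered libraries correlated at -0.09, 0.08 and -0.01, which with so few libraries does not decide whether they were paired. Alternatives were DESeq2 1.42.0, limma-voom (limma 3.58.1), other scalings and filters, thinning, a replicate block and leaving out libraries.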

Additional observations from a re-analysis of the deposited data

Results flagged for a closer look

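A library was singled out where its gap to the nearest of the other 3 NMF libraries, as a share of the range of the 4, passed Dixon's limit, which chance passes in about 1 of 20 groups. Of 78 measures looked at, 9 passed. Krt19 in NMF 1 stood high, at 214 CPM against 123 to 131 CPM in the other NMF libraries (gap 0.913). Msln and Upk3b each had counts in NMF 3 alone, at 0.704 CPM against 0 in the others (gap 1.00 for each), which for each gene is 2 counts. Nrg1 had 0.386 CPM in NMF 1 and 0 in the others (gap 1.00), which is 1 count. With 0 in 3 of 4 libraries the gap is 1.00 for any count in the fourth, so that Msln, Upk3b and Nrg1 passed by construction.

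In NMF 4, Krt18 took 19.7% of the simple keratin counts against 40.3 to 43.5% in the other NMF libraries (gap 0.869), and Krt19 took 68.2% against 36.9 to 41.9% (gap 0.842). Ppl stood high in NMF 4, at 96.6 CPM against 20.4 to 24.5 CPM (gap 0.947), as did Myh11, at 97.5 CPM against 14.7 to 23.6 CPM (gap 0.892). Synm stood high in NMF 2, at 29.1 CPM against 14.8 to 17.0 CPM (gap 0.844).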

How the results depend on the processing

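Krt19 and Msln kept their direction and their call in each alternative run. Members called higher numbered 1, and 2 with no filter on low counts or without pCAF 1 and NMF 4 together, with a range of 1 to 2 over the omissions of 1 library. Members called lower numbered 3, and 1 with the replicate block, with a range of 1 to 3 over the omissions. With the replicate block, whose numbers are not stated to pair the libraries, Epcam and Cdh1 had edgeR adjusted p of 0.0812 and 0.0656, and 978 genes were called higher, against 1503. Over the omissions 1016 to 2021 genes were higher and 979 to 2187 lower, and without pCAF 1 and NMF 4 together 2802 were higher and 2913 lower, against 1503 and 1491. Scaling by library totals put 37.1% of calls higher, against 50.2%, and the median over tested genes at -0.26 on the log2 scale, against -0.02.

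Keratins that did not pass changed sign. Krt7 had log2 fold changes of -0.24 with library totals, -0.038 with upper quartile factors, -0.017 with no filter, -0.24 with the replicate block, -0.48 without pCAF 1 and NMF 4 together, and -0.23 to 0.21 over the omissions. Krt8 had 0.26 with limma-voom, 0.063 after thinning, and -0.35 to 0.37 over the omissions. Krt14 had -0.046 with limma-voom, -0.20 with the replicate block, and -0.65 to 0.97 over the omissions. Krt18 ran from -0.63 to 0.14 over the omissions, and the Krt18 count per Krt8 count (pCAF minus NMF, -0.470 with all libraries) ran from -1.13 without pCAF 2 to 0.271 without pCAF 1. The cause of these changes was not tested. Requiring a mean of 10 CPM left 6 members tested, without Cdh1 and Krt14. The depth limits Epcam, Cdh1, Krt5, Krt14 and Upk3b, which had few counts in pCAF.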

Other observations

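Some epithelial genes were at 0 in NMF 4, the deepest library, and present in NMF 1 to 3, and the examples were chosen after their values were seen. Of the genes with counts in NMF 1, 2 and 3, this held for 5 of 21 epithelial junction and polarity genes, 4 of 11 epithelial transcription and splicing factors and 0 of 18 luminal mammary genes. It also held for 2 of 16 desmosome plaque and hemidesmosome genes and 1 of 8 other keratins. Among cadherins and catenins it held for 1 of 11, and among other intermediate filament genes for 1 of 13. For the myoepithelial and mesothelial lists it held for 0 of 14 and 0 of 15. The share over all genes was not computed, and NMF 4 had counts in 13222 genes, against 14110 to 14353 in NMF 1 to 3. Cldn4 had 4, 2 and 6 counts in pCAF 1 to 3, against 62, 44, 41 and 0 counts in NMF 1 to 4. Elf3 had 0, 0 and 1 counts in pCAF, against 15, 12, 2 and 0 counts in NMF. Other genes kept counts in NMF 4, with Kit at 25, Wfdc18 at 12 and Foxa1 at 8 counts there. In NMF 4, 1 count was worth 0.187 CPM, against 0.352 to 0.422 CPM in NMF 1 to 3. Krt19 was at 123 CPM in NMF 4 and Cdh1 at 31 counts, or 5.79 CPM. For both genes this was the lowest CPM of the NMF libraries, although Krt19 lay close to the 124 and 131 CPM of NMF 2 and NMF 3.

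Among the pCAF libraries, counts of Epcam, Cdh1, Krt14, Calb2 and Cdh3 were present in replicates 2 and 3 and at 0 in replicate 1, which had counts in 11090 genes against 13222 to 14353 in the other libraries. Of the genes with counts in pCAF 2 and 3, replicate 1 was at 0 for 5 of 15 junction and polarity genes, 5 of 7 transcription and splicing factors and 3 of 21 mesothelial genes. It was also at 0 for 5 of 11 cadherins and catenins, 2 of 4 other keratins and 4 of 15 desmosome plaque and hemidesmosome genes. In the myoepithelial, luminal and other intermediate filament lists this held for 4 of 13, 1 of 13 and 2 of 11. The share over all genes was not computed. Other genes went the opposite way, with Ovol2 at 41, 0 and 0 counts and Krt20 at 11, 0 and 1 counts in pCAF 1 to 3. Cdh3, the P-cadherin gene, had 0, 10 and 12 counts in pCAF 1 to 3, against 0, 0, 0 and 2 counts in NMF 1 to 4. Msln and Krt19 were present in all 3 pCAF libraries.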
